A study of Homo sapiens with 6 samples.

Results

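Metallothioneins are small proteins rich in cysteine that bind zinc, copper and cadmium, and the genes described here are 8 metallothioneins (MT1A, MT1E, MT1F, MT1G, MT1H, MT1M, MT1X and MT2A), the zinc exporter SLC30A1 and the zinc-sensing transcription factor MTF1. They were taken by gene symbol from the array annotation, 10 genes in all beside 20046 genes named on the array. A named probe was found for 9 of them, with 12 probes in all, and MT1A was not analysed here for want of one. The cells were HCT116, an established human colorectal carcinoma line, in a derivative that the series describes as p53-null in both groups, which was not checked here. One group received 10 µM TIC10, the compound also known as ONC201, and the other 0.05% DMSO, its solvent, for 48 h, and RNA was hybridized to 3 Illumina bead arrays per treatment. The labels call the arrays replicates without naming separate cultures, so the spread given here may be technical. The genes were chosen with their TIC10 and DMSO values known, and those values are given as a description, without a p-value.

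In TIC10-treated cells 4 metallothionein transcripts and SLC30A1 read higher than in DMSO on every array after normalization. MT1X stood 4.48-fold above its DMSO mean, MT1G 2.67-fold, MT2A 2.34-fold, MT1E 1.70-fold and SLC30A1 1.52-fold. MT1F read lower, at 0.786 of its DMSO mean, MT1H lay near the median probe of the array and MT1M among the dimmest, and MTF1 differed by less than its spread between arrays. A fold here is taken from intensities after background correction, quantile normalization and an added offset of 50, which makes folds of dim probes smaller. Ratios of the mean intensities before these steps were lower for the genes that read higher. They were 3.32 for MT1X, 2.10 for MT1G, 1.95 for MT2A, 1.32 for MT1E and 1.20 for SLC30A1. For MT1F the ratio was 0.544, further from no change than after normalization.

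Zinc that is free in the cytosol is kept scarce. When it rises, MTF1 binds zinc through its zinc fingers, enters the nucleus and binds metal response elements in the promoters of the metallothionein genes and of SLC30A1, whose products buffer zinc and carry it out of the cell. Cadmium, oxidants that free zinc from thiols, and glucocorticoids also induce metallothioneins. The MT1 and MT2 genes lie together on chromosome 16, and MTF1 itself is mostly regulated as a protein.

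The promoters of 5 of the 10 genes were in the RefSeq table (build GRCh38.p14): MT2A, MT1X, MT1H, SLC30A1 and MTF1. Shown are the 250 bases before the annotated starts of MT2A, MT1X and SLC30A1, which read higher with TIC10, and of MT1H, which gave little signal. They lie at chr16:56608334-56608583 and chr16:56682220-56682469 and chr16:56669564-56669813 on the plus strand and at chr1:211579162-211579411 on the minus strand. Capitals mark the core of the metal response element, TGCACNC or TGCGCNC, read on either strand.
MT2A: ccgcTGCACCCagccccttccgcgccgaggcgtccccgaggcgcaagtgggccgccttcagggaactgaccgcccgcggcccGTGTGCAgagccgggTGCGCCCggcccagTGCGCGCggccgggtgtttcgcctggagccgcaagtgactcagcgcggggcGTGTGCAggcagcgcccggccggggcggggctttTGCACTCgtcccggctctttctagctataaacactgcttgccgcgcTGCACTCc
MT1X: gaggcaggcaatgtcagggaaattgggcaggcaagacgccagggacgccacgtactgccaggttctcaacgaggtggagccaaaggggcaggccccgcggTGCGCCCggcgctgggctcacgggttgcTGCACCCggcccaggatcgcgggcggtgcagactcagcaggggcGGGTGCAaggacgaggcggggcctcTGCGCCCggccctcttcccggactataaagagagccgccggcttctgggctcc
MT1H: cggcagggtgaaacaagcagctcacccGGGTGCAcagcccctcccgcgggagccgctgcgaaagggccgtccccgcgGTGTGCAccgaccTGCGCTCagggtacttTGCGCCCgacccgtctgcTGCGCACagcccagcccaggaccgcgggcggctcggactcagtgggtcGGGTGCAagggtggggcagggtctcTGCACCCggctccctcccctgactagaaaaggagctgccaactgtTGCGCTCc
SLC30A1: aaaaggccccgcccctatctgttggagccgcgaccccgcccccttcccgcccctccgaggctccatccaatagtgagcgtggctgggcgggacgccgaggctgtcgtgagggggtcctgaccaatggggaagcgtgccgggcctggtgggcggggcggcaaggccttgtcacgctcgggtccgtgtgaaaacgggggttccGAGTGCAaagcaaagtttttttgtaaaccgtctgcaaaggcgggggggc

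Counted over a window of 300 bases that adds the 50 bases after the start, MT2A held 8 cores, MT1H 8, MT1X 4, SLC30A1 2 and MTF1 0. No core overlapped another in these windows. At least 1 core was found in 29.6% of 35116 promoter windows, at least 2 in 8.60%, at least 4 in 0.601% and at least 8 in 0.0199%, which is 7 windows. The windows of these genes were rich in G and C, from 67% in MT1X to 72% in MT2A, and of all windows with at least 65% G and C (a limit set after the data were seen) 47.2% held a core and 1.42% held at least 4. A core began 53 or 54 bases before the start in MT2A, MT1X and MT1H, and also in MT1B, a metallothionein outside the set whose window held 3. MT1H carried as many cores as MT2A. Its probe lay near the median probe of the array, so whether MT1H responded to TIC10 cannot be told. A match of letters is a description and not a bound site.

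**Figure D1:**
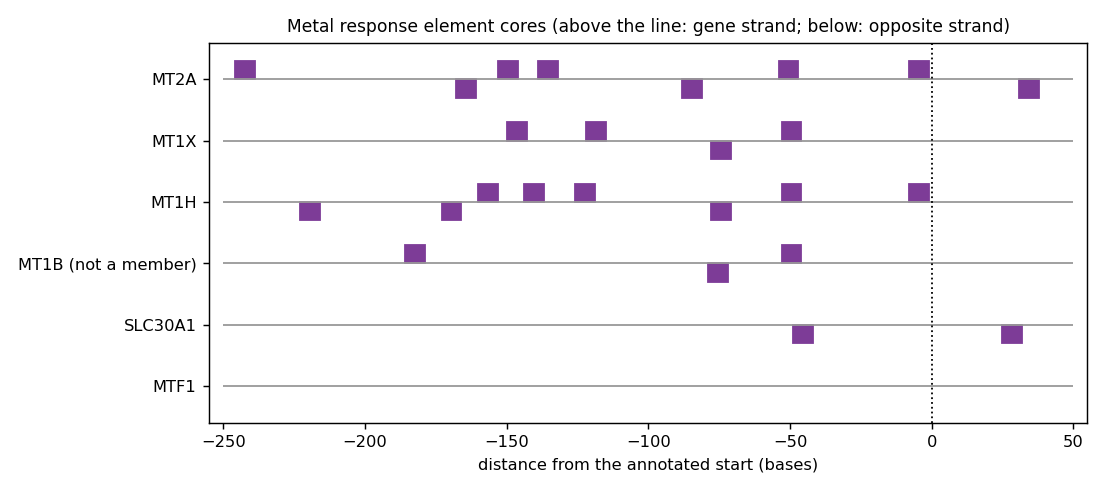
Position of metal response element cores in promoter windows, with the distance from the annotated start in bases on the horizontal axis and a row per gene. Each box is 1 core of 7 bases, above the line when read on the strand of the gene and below it when read on the other. MT2A and MT1H carry 8 boxes each, MT1X 4, MT1B 3, SLC30A1 2 and MTF1 0.

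MT2A, the main metallothionein of most human cells, was among the brightest probes of every array. It read 13302, 14227 and 14012 intensity units on the TIC10 arrays, against 8006, 9110 and 4215 on DMSO replicates 1, 2 and 3. All TIC10 arrays lay above all DMSO arrays, and DMSO replicate 3 lay far below the other two. On the normalized log2 scale MT2A averaged 13.78 ± 0.06 with TIC10 and 12.56 ± 1.07 with DMSO (mean ± SD, n = 3 each), a difference of 1.22 ± 0.48 (SE of the limma fit). The brightest probe of each array read 16536 to 17427, so the TIC10 values of MT2A lay near the top of what was read on these arrays. Whether its difference was compressed there was not tested.

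MT1X, an isoform of the MT1 group, read 3746, 3704 and 3598 on the TIC10 arrays, against 1046, 1299 and 979 on the DMSO arrays. These groups were far apart, with the TIC10 arrays within a narrow range. Its normalized log2 level was 12.04 ± 0.14 with TIC10 and 9.88 ± 0.59 with DMSO, a difference of 2.16 ± 0.28. That difference lay at percentile 99.9 of the differences of all 14534 genes tested.

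MT1G, a further isoform, read 393, 352 and 458 on the TIC10 arrays, against 243, 217 and 112 on the DMSO arrays. The groups did not overlap, and DMSO replicate 3 was again the lowest. Its normalized log2 level was 8.97 ± 0.09 with TIC10 and 7.55 ± 0.71 with DMSO, a difference of 1.41 ± 0.32, at percentile 99.4.

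MT1E had a bright and a dim probe. The bright one read 4775, 5539 and 4835 on the TIC10 arrays, against 4241, 4381 and 2868 on the DMSO arrays. All TIC10 arrays were higher, but DMSO replicates 1 and 2 came close to them. Its normalized difference was 0.76 ± 0.37, from 12.43 ± 0.19 with TIC10 and 11.67 ± 0.78 with DMSO. The dim probe lay between 60.6 and 64.4 with TIC10 and between 41.7 and 59.3 with DMSO, with a normalized difference of 0.35 ± 0.10, so both probes pointed the same way.

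MT1F went the other way in the bead intensities. It read 254, 306 and 310 on the TIC10 arrays, against 515, 444 and 639 on the DMSO arrays. Here every TIC10 array lay below every DMSO array, and DMSO replicate 3, low for the genes above, was the highest before normalization. On the normalized log2 scale DMSO replicate 3 was the lowest DMSO array for MT1F too, at 8.69 against 8.94 on each of the others. After normalization MT1F was 8.51 ± 0.14 with TIC10 and 8.86 ± 0.14 with DMSO, a difference of -0.35 ± 0.11, at percentile 17.4 of all genes. In the series matrix, the table of values processed by the authors, its difference was 0.13 ± 0.12, with overlapping groups, so the direction for MT1F depended on the table used. With arrays scaled to one median MT1F gave -0.75, where the median gene gave -0.15.

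MT1H and MT1M gave little signal. The brighter MT1H probe lay between 42.2 and 45.9 with TIC10 and between 49.4 and 64.5 with DMSO, where the median probe of an array read 42.6 to 43.6 with TIC10 and 46.0 to 49.6 with DMSO. After normalization the MT1H groups overlapped (-0.13 ± 0.08). The second MT1H probe lay above percentile 40 of its array on 2 arrays only. MT1M lay between 29.1 and 32.7 with TIC10 and between 29.9 and 33.9 with DMSO, never above percentile 5.87, and no difference was detectable at this intensity.

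SLC30A1, the transporter that carries zinc out across the plasma membrane, had 2 probes of moderate brightness. The brighter one read 186, 190 and 216 on the TIC10 arrays, against 186, 168 and 140 on the DMSO arrays, where the intensities of the groups overlapped. After normalization its groups were apart, 7.99 ± 0.03 with TIC10 and 7.39 ± 0.38 with DMSO, a difference of 0.60 ± 0.18. The dimmer probe gave 0.75 ± 0.21. MTF1 read 116, 98.7 and 166 on the TIC10 arrays, against 185, 155 and 182 on the DMSO arrays. Its normalized groups overlapped, 7.38 ± 0.25 with TIC10 and 7.44 ± 0.21 with DMSO, a difference of -0.06 ± 0.16. Scaling every array to one median instead gave -0.34 for MTF1, beside the same median gene at -0.15, and the series matrix gave 0.31, so no direction can be given for MTF1.

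**Figure D2:**
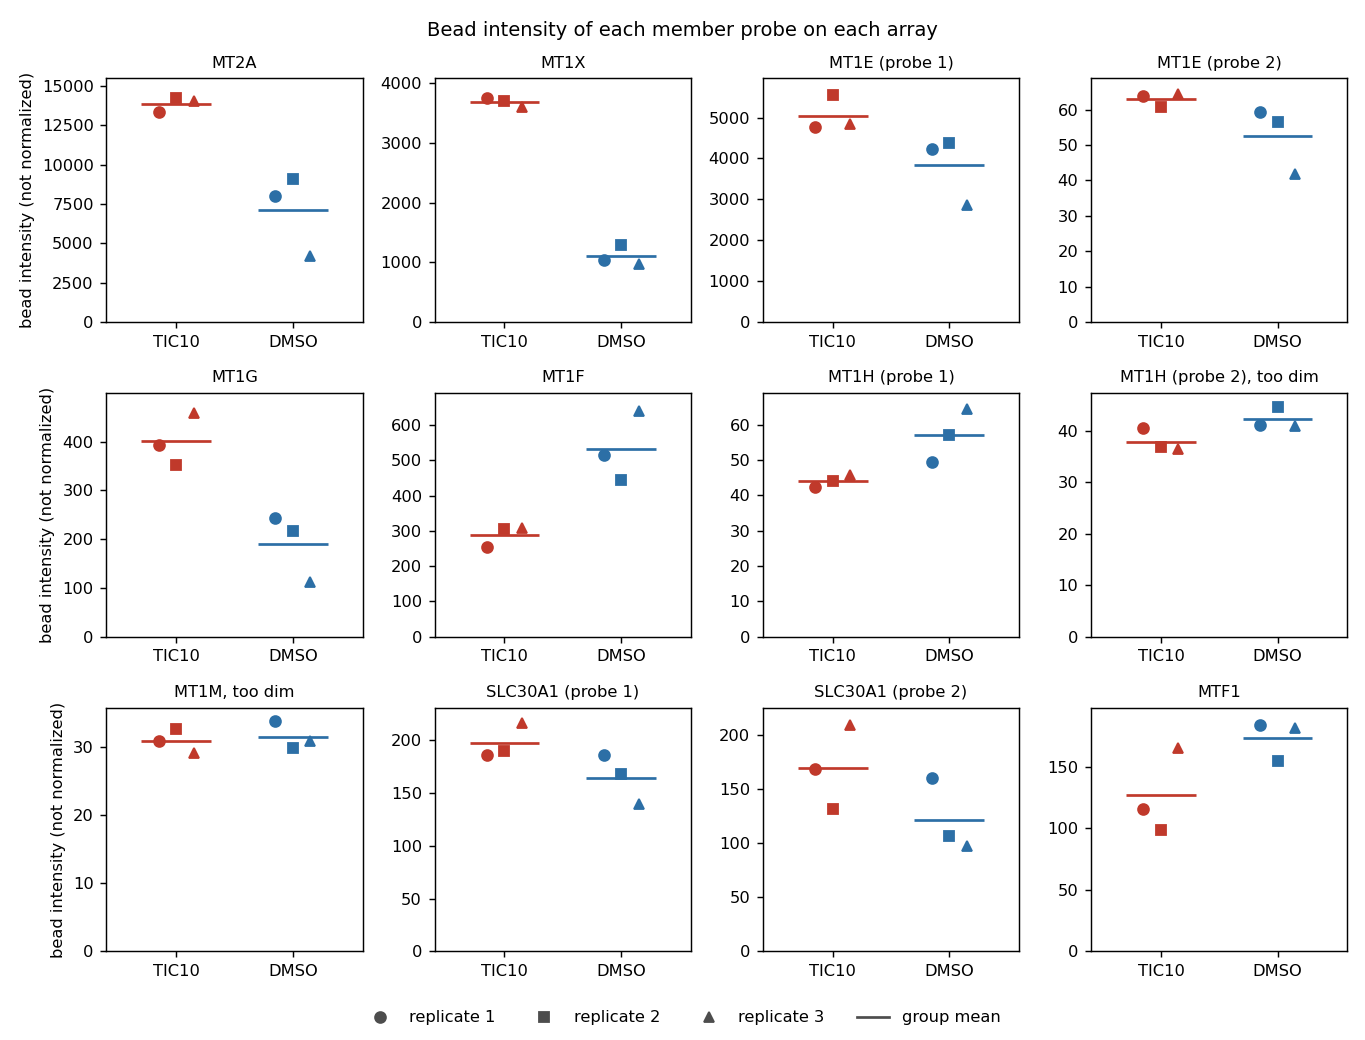
Bead intensity, not normalized, of each of the 12 probes on each array, with TIC10 at left and DMSO at right in every panel and the vertical axis starting at 0. Points are arrays, their shape gives the replicate number and the line is the group mean. MT2A, MT1X, MT1G and both MT1E probes have all TIC10 points above all DMSO points, and MT1F and both MT1H probes have them below. Panels marked too dim show probes above percentile 40 on fewer than 3 arrays.

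Of the 8 genes with a probe bright enough to be kept, 5 had all normalized TIC10 arrays above all DMSO arrays, as 18.5% of all genes did, and 1 had them below, as 23.1% did. The other 2 overlapped, and groups did not overlap in 41.6% of all genes. The fit over all genes put 2 of the 8, MT1X and MT1G, past an adjusted p of 0.05 (limma, Benjamini-Hochberg), beside 23.8% of all genes. MT1X stayed past it in all 15 alternatives, while MT1G did not pass without any one TIC10 array or with arrays scaled to one median. Since the genes were chosen on this contrast, nothing is read from these counts. The median log2 difference of the 7 metallothioneins with a probe, dim ones included, was 0.76, beside -0.01 over all genes.

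The low values on DMSO replicate 3 of the bead table were common to several of these genes. Its normalized log2 level minus the average of the other DMSO arrays was -1.84 for MT2A, at percentile 0.268 of all genes. This deviation was -1.35 for MT1E, -1.22 for MT1G, -0.92 for MT1X and -0.67 for SLC30A1, at percentiles 0.922, 1.25, 2.80 and 5.42. It was smaller for MTF1 (-0.35) and MT1F (-0.25), and MT1H deviated by 0.08. The 5 genes that read higher with TIC10 were thus also those lowest on DMSO replicate 3. Probes averaged 245 to 277 intensity units on the TIC10 arrays, against 297 on DMSO replicate 1, 270 on replicate 2 and 404 on replicate 3, and what part this played was not tested. When DMSO replicate 3 was left out and the other arrays were normalized again, the differences were 0.66 for MT2A, 0.33 for MT1E, 0.99 for MT1G and 0.37 for SLC30A1, and 1.88 for MT1X. Their SE was then 0.10 for MT2A and 0.15 for MT1X, and 5 of the 8 genes (MT2A, MT1X, MT1F, MT1G and SLC30A1) passed the same threshold, beside 36.3% of all genes.

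Over the 6 arrays, levels of the genes that read higher ran together. Pearson's r was 0.98 between MT2A and MT1E, 0.99 between MT2A and SLC30A1, 0.99 between MT1G and SLC30A1 and 0.87 between MT2A and MT1X. MT1F gave r = -0.29 with MT2A and -0.68 with MT1X, and MTF1 gave 0.29 with MT2A and 0.21 with SLC30A1. These values describe 6 arrays that share the treatment difference and DMSO replicate 3. The metallothionein genes are close copies of each other and no probe sequence was used here, so a probe of one isoform may also bind transcripts of another, and the isoform values may not be separate measurements.

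The series matrix holds the same comparison in values that the authors processed and centred per probe, in log units of unstated base, taken as log2. MT2A read 0.27, 0.26 and 0.22 on the TIC10 columns, against -0.44, -0.22 and -0.28 on the DMSO columns. MT1X read 0.44, 0.40 and 0.24 with TIC10, against -0.48, -0.24 and -0.26 with DMSO. MT1G read 0.26, 0.30 and 0.52 with TIC10, against -0.45, -0.38 and -0.35 with DMSO. In each of these genes all TIC10 columns lay above all DMSO columns. Over the DMSO columns the SD was 0.11 for MT2A, 0.13 for MT1X and 0.05 for MT1G. In the normalized bead table it was 1.07, 0.59 and 0.71. No DMSO column of these genes lay as far from the others as DMSO replicate 3 did there. Why the tables differ was not tested.

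The differences in the matrix were 0.75 ± 0.12 for MT1G, 0.69 ± 0.12 for MT1X, 0.56 ± 0.12 for MT2A, 0.54 ± 0.12 for MT1E, 0.35 ± 0.12 for SLC30A1 and 0.31 ± 0.13 for MTF1. These 6 of the 8 kept genes had, on their brightest probe, all TIC10 columns above all DMSO columns, beside 11.6% of all genes. The second probes of MT1E (0.13 ± 0.12) and SLC30A1 (0.16 ± 0.13) had overlapping groups in the matrix. Differences were smaller in the matrix as a whole, with an SD over genes of 0.247 against 0.468 in the normalized bead table, so ranks compare better. MT1G lay at percentile 99.1 of its differences, MT1X at 98.8, MT2A and MT1E close to 98, SLC30A1 at 94.3, MTF1 at 92.6 and MT1F at 78.1. The matrix put 4 of the 8 genes (MT2A, MT1E, MT1X and MT1G) past the threshold, beside 6.70% of all genes. Both tables come from the same samples and are no independent support for each other.

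**Figure D3:**
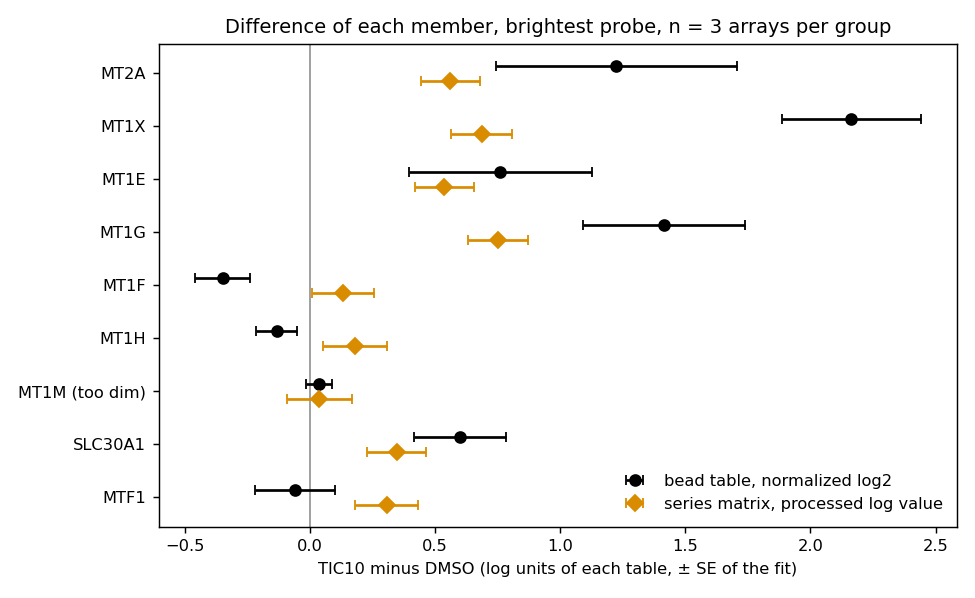
Difference of TIC10 minus DMSO for the brightest probe of each gene, in log units of each table on the horizontal axis, with bars for the SE of the limma fit and n = 3 arrays per group. Circles are normalized bead intensities and diamonds the series matrix. MT2A, MT1X, MT1E, MT1G and SLC30A1 lie to the right of 0 in both tables, while MT1F, MT1H and MTF1 change sides.

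**Figure D4:**
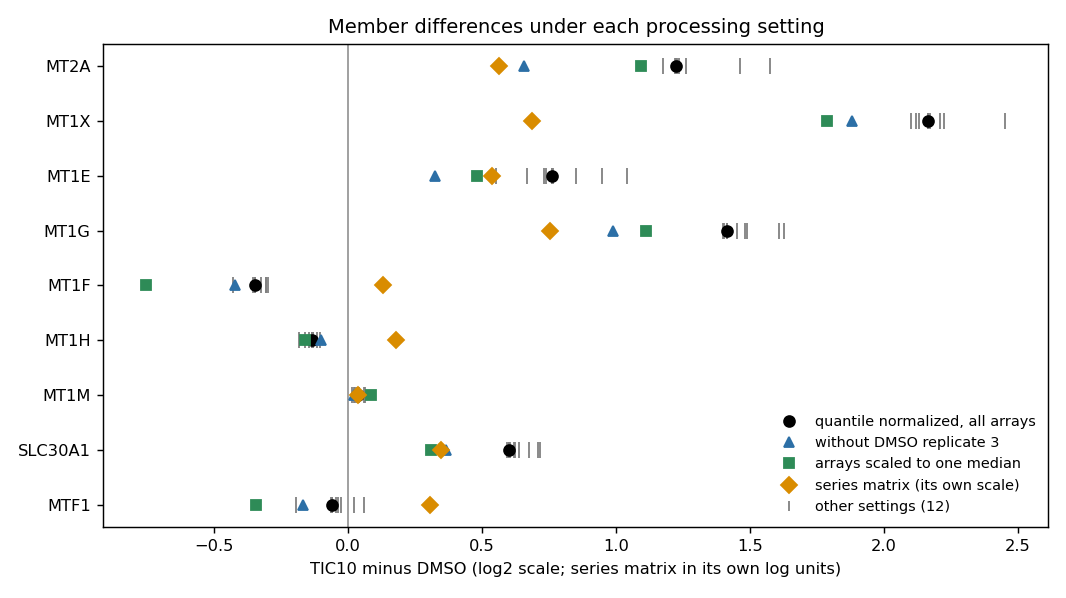
The same differences under each processing setting, with a row per gene. Marked points are the reported setting, the fit without DMSO replicate 3, arrays scaled to one median and the series matrix, and ticks are the other 12 settings. MT2A, MT1X, MT1E, MT1G and SLC30A1 stay above 0 in all 16 settings, with MT2A from 0.56 to 1.57 and MT1X from 0.69 to 2.45. Ticks for no filter, the stricter filter, the intensity trend and the replicate block equal the reported setting by construction and are no further check of the sign.

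Few of the other zinc transporters passed the test. The SLC30 proteins carry zinc out of the cytosol and the SLC39 (ZIP) proteins into it, and of the other 23 genes of both families 16 had a kept probe. None of the 16 was called higher and 1 was lower, beside 10.4% and 13.4% of all genes, while 2 were higher and 3 lower at an unadjusted p under 0.05 in the same limma fit. Their median log2 difference was -0.01, as over all genes (-0.01). SLC39A8 (ZIP8), an importer of zinc and manganese, fell by 0.43 on the log2 scale, with an SE of 0.10 (adjusted p = 0.0233). SLC39A8 intensities were 119.9, 130.5 and 176.6 with TIC10, against 252, 213 and 362 with DMSO, and a second probe gave -0.58. The call of SLC39A8 was lost in 7 of 15 alternatives, among them the fits without TIC10 replicate 1 or 2 or DMSO replicate 1 or 2 (adjusted p 0.00924 to 0.307 over all 15).

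SLC39A14 (ZIP14), an importer of zinc and iron that inflammation is known to raise in liver, differed by 0.65 ± 0.24 (adjusted p = 0.0994). Its intensities were 522, 487 and 647 with TIC10, against 325, 358 and 1029 with DMSO, so that DMSO replicate 3 alone lay above the TIC10 arrays before normalization. Without that array SLC39A14 differed by 0.92 (adjusted p = 0.000355), and in the series matrix by 0.59 (adjusted p = 0.00822; 0.000355 to 0.797 over 15 alternatives). Leaving out DMSO replicate 3 gave 2 transporters higher (SLC39A14 and SLC39A4) and 4 lower (SLC30A3, SLC30A7, SLC39A3 and SLC39A8). SLC30A3, a vesicular zinc transporter known from synapses, was at -0.55 ± 0.21 with all arrays (adjusted p = 0.113). Beside SLC39A8, these transporters were named after their values were seen. Of 13 further metallothionein genes and pseudogenes 5 had a named probe, and the kept ones, MT1L (0.05 ± 0.07) and MT1IP (-0.06 ± 0.07), gave no call with limma, 0 at an unadjusted p under 0.05 included. Both lay near the median probe of the arrays, MT1L at percentiles 49.1 to 60.4 and MT1IP at 32.8 to 53.7. Whether they responded to TIC10 cannot be told.

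**Figure D5:**
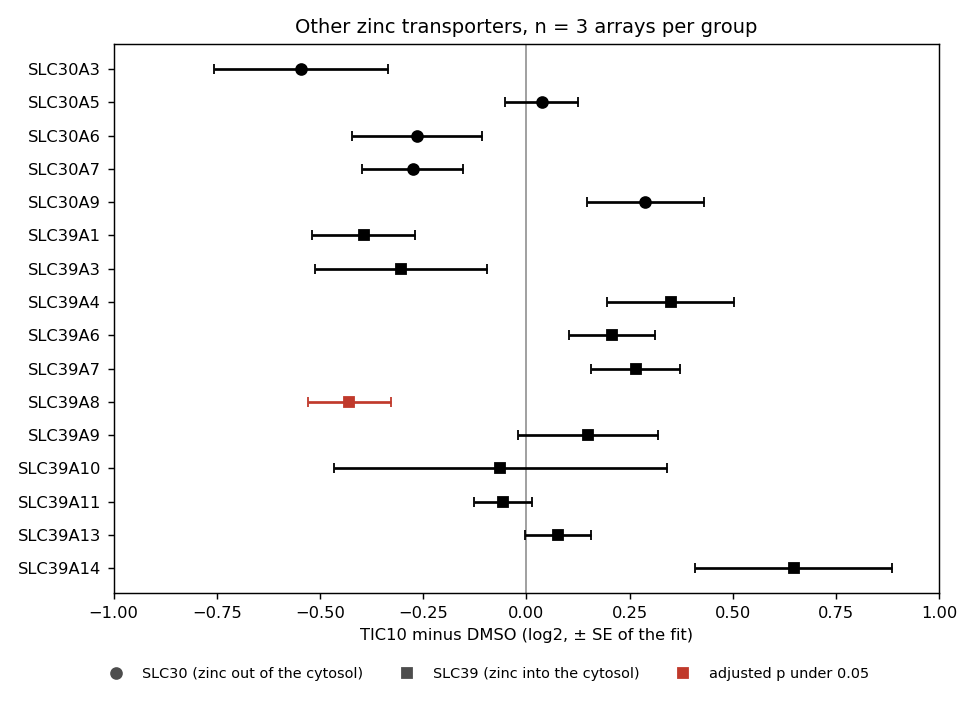
Difference of TIC10 minus DMSO on the normalized log2 scale for the 16 kept genes of the SLC30 (circles) and SLC39 (squares) families, with bars for the SE of the limma fit and n = 3 arrays per group. SLC39A8, at -0.43, is the one coloured as past the adjusted threshold, and SLC39A14, at 0.65, has the largest positive value with a wide error.

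Genes that handle copper and iron moved in both directions. Of 15 tested, 3 rose and 3 fell (limma, adjusted p under 0.05), beside 10.4% and 13.4% of all genes. The median difference of the 15 was -0.13, beside -0.01 over all genes. SLC11A2 (DMT1), an iron importer, rose by 0.63 ± 0.08 (adjusted p = 0.00242), TFRC, the transferrin receptor, by 0.67 ± 0.19 (adjusted p = 0.0445), and FBXL5, which senses iron, by 0.58 ± 0.12 (adjusted p = 0.0146). SLC31A2, a copper transporter of endosomes, was at -0.84 ± 0.11 (adjusted p = 0.00233), SCO1, a copper chaperone of cytochrome oxidase, at -0.62 ± 0.15 (adjusted p = 0.0226) and ATP7B, a copper-exporting pump, at -0.55 ± 0.11 (adjusted p = 0.0113). TFRC lost its call in 8 of 15 alternatives, without any one array but DMSO replicate 3 among them, and SCO1 and FBXL5 theirs without TIC10 replicate 1 or 3 and ATP7B without TIC10 replicate 1. Averaging the probes of a gene also ended the calls of ATP7B (-0.18), whose second kept probe went the other way (0.20 ± 0.06), and of FBXL5 (0.25), whose second kept probe gave -0.08 ± 0.08. With arrays scaled to one median 0 of these genes were called higher, and SCO1 and ATP7B were no longer called lower. In the series matrix 0 were called lower, and FBXL5 was not called.

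Genes of the stress response to heavy metals, beside the metallothioneins, did not share one direction. Of 12 tested, 3 rose and 5 fell, beside 10.4% and 13.4% of all genes, and the median difference of the 12 was -0.003. SRXN1, which encodes sulfiredoxin, rose 3.12-fold (1.64 ± 0.10, adjusted p = 0.000253), TXNRD1, thioredoxin reductase, 2.39-fold (1.26 ± 0.13, adjusted p = 0.00116) and SLC7A11, the cystine transporter, 1.54-fold (0.62 ± 0.09, adjusted p = 0.00330). HSPA1B, an inducible HSP70, fell to 0.267 of its DMSO level (-1.90 ± 0.08, adjusted p = 0.000128) and HSPH1, an HSP110 chaperone, to 0.418 (-1.26 ± 0.10, adjusted p = 0.000579). HSPA8, BAG3 and DNAJB1, a chaperone and its cofactors, fell as well (-0.82 ± 0.11, -0.78 ± 0.14 and -0.52 ± 0.10). The series matrix did not call HSPA8 or DNAJB1, and scaling to one median did not call TXNRD1. HMOX1, haem oxygenase, differed by 0.12 ± 0.07 (adjusted p = 0.294), and by 0.85 in the series matrix (adjusted p = 0.000188; 0.000188 to 0.543 over 15 alternatives), and HMOX1, SLC7A11 and DNAJB1 were named after their values were seen.

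Of 7 tested genes of the glucocorticoid response, the gene of the receptor counted among them, 4 rose and 2 fell, beside 10.4% and 13.4% of all genes. The median difference of the 7 was 0.60, beside -0.01 over all genes. TSC22D3 (GILZ) rose 2.06-fold (1.04 ± 0.16, adjusted p = 0.00507), the transcription factor KLF9 1.67-fold (0.74 ± 0.15, adjusted p = 0.0148), the phosphatase DUSP1 1.53-fold (0.61 ± 0.15, adjusted p = 0.0260) and the clock gene PER1 1.52-fold (0.60 ± 0.12, adjusted p = 0.0142). FKBP5, a co-chaperone of the receptor, fell (-0.63 ± 0.11, adjusted p = 0.00703), and so did the kinase SGK1 (-0.66 ± 0.09, adjusted p = 0.00316). In the series matrix FKBP5, SGK1, DUSP1 and PER1 did not pass. The receptor itself, NR3C1, differed by 0.07 ± 0.08 (named after its value was seen). Its probe lay at percentiles 53.7 to 64, not far above the median probe, so little can be said of its level. With arrays scaled to one median, TSC22D3 was the one gene of these 7 called higher. KLF9 lost its call without any one TIC10 array, DUSP1 without TIC10 replicate 2 or 3 or DMSO replicate 2, and PER1 without TIC10 replicate 3 or DMSO replicate 2.

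The genes outside the set whose levels over the 6 arrays were most like those of MT2A were ITGA2, an integrin subunit (r = 1.00), EOLA1 (0.998), ANGPTL4, an inhibitor of lipoprotein lipase (0.998), ZNF112 (0.997) and LMBRD1 (0.997). ITGA2 differed by 1.37 ± 0.52. ITGA2 read 10.02, 10.13 and 10.07 on the TIC10 arrays, against 9.19, 9.54 and 7.39 on the DMSO arrays, on the normalized log2 scale, with DMSO replicate 3 again the lowest. The genes most like SLC30A1 were NDRG1 (r = 0.998), MAP2, MCRIP2, PLEKHM2 (each 0.997) and DNAJB2 (0.996). NDRG1, a gene raised by hypoxia, differed by 1.71 ± 0.46, MCRIP2 by 1.06 ± 0.28 and DNAJB2 by 1.08 ± 0.30. Such correlations rest on 6 arrays and on DMSO replicate 3, and the genes are given as a description.

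Intensities summed to between 1.16e+07 and 1.31e+07 per array with TIC10 and between 1.28e+07 and 1.91e+07 with DMSO, and the number of arrays limits the precision. RNA came from bulk cultures, where fewer cells expressing a gene and less RNA per cell cannot be told apart. Of 8 markers of colon epithelium 6 passed the brightness filter, with EPCAM at percentile 99.0 or above on every array and CDX2 at 80.5 or above, while VIL1 and LGALS4 failed it. Among those that passed, KRT18 ran from percentile 42.7 to 81.7 and KRT20 from 20.3 to 60.5, beside 56.9 to 66 for the blood marker CD14. Of the markers of blood, fibroblasts and endothelium, 5 of 10 with a probe passed, and the highest of them, COL1A1, reached percentile 71.5.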

How the data were processed

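Total RNA of 6 samples, 3 per group, was profiled on Illumina arrays. The deposited bead table holds intensity values for 47319 probes that the file's name calls not normalized, and the deposited series matrix holds values taken as log2, processed and centred by the authors by steps not given in the sources used here. Columns named Control were taken as DMSO by group and number. Deviations within a group of same-numbered columns of both tables gave r from -0.551 to 0.0831, so replicate numbers were not compared across tables. Detection p-values were not used here.

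Analysis used R 4.3.3 and limma 3.58.1. Background was corrected by normexp with an offset of 50, arrays were brought together by quantiles, and log2 was taken. Probes brighter than percentile 40 on 3 or more arrays were kept, and a gene was its brightest kept probe, which gave 14534 genes. Of the probes, 30112 had 1 gene symbol, 8 several (not used) and 17199 none. Groups were compared with lmFit and eBayes (two-sided, Benjamini-Hochberg over all genes, threshold 0.05). The steps were tested on simulated data.

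The genes and lists were chosen with earlier results of these data known. Named were all set genes, the most changed called genes of each list (up to 6; with none called, the 2 of lowest p), and the 5 genes most correlated with MT2A and with SLC30A1. Promoter windows were taken from RefSeq. Alternatives were no background correction (offset 16), scaling to one median, cyclic loess, the series matrix, no filter, a stricter filter (percentile 60 on 6 arrays), averaging probes per gene, robust eBayes with a trend on intensity, a block for the replicate number, and fits without one array each. The check of pairing gave same-number correlations of -0.152, 0.165 and -0.014 in the bead table. In the series matrix they were -0.48, -0.079 and 0.462. These values had no common sign, and whether equal numbers pair the arrays cannot be told from them. The main fit took the arrays as unpaired.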

Additional observations from a re-analysis of the deposited data

How the results depend on the processing

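MT2A, MT1X, MT1E, MT1G, MT1M and SLC30A1 kept their sign in all 15 alternatives. No filter, the stricter filter, the intensity trend and the replicate block could not change it, since they use the same levels of the same probe. Averaging probes could not either for a gene with 1 probe. MT1M kept its sign at 0.04 ± 0.05, so a kept sign is not a detected difference. In the series matrix MT1F turned to 0.13, MT1H to 0.18 and MTF1 to 0.31, and MTF1 ran from -0.19 to 0.058 over the fits without one array, above 0 without TIC10 replicate 2 (0.058) or DMSO replicate 1 (0.022); the cause was not tested. The median of the measured metallothioneins ran from 0.33 (without DMSO replicate 3) to 1.04 over the fits without one array, and the number of the 8 genes past the threshold from 1 to 5, with 4 in the series matrix. With arrays scaled to one median 318 genes of all were called higher, 3 zinc transporters were lower, 0 copper and iron genes and 1 glucocorticoid gene higher. The median of all genes was then -0.15, against -0.01 after quantile normalization. In the series matrix 535 genes were higher and 439 lower, 1 zinc transporter was higher (SLC39A14), 0 copper and iron genes were lower, and 2 glucocorticoid genes were higher and 0 lower. With the mean of a gene's probes 2 zinc transporters were lower. Fits without one array gave 883 to 2351 genes higher and 1180 to 2732 lower, 0 to 2 zinc transporters higher and 0 to 4 lower, 1 to 3 copper and iron genes higher and 1 to 5 lower, and 1 to 4 glucocorticoid genes higher. Counts of the genes of the stress response to heavy metals were within 1.5 times of 3 higher and 5 lower in every fit without one array. The replicate block, over arrays of the same number, gave 1264 genes higher and 1613 lower, where 1513 and 1944 were called without it. Of the 5 promoter windows of the set 4 held a core, also in the 250 bases before the start, and 5 with the shorter core TGCNC, which 91% of all windows hold. Dim probes limit what can be said of MT1H and MT1M, and bright ones of MT2A.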

Other observations

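The protein-coding genes next to the metallothionein cluster on chromosome 16, chosen after the values were seen, were also read. On the side of MT2A, BBS2 differed by 0.22 ± 0.18, OGFOD1 by -0.11 ± 0.08 and NUDT21 by -0.73 ± 0.27. On the side of MT1X, NUP93, a nuclear pore subunit, differed by -0.78 ± 0.28 and SLC12A3 by 0.03 ± 0.07. SLC12A3 was dim, at 6.05 with TIC10 and 6.02 with DMSO on the normalized log2 scale, so little can be said of it. None of these 5 neighbours passed the limma threshold (adjusted p 0.0978 to 0.808), and MT2A, at 1.22 ± 0.48, did not pass it either.

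The bead table and the series matrix differ in more than scale. Over 14534 genes, the TIC10 minus DMSO differences of the tables correlated with r = 0.606, a value across genes, which are not independent replicates. Deviations of each column from its group mean were also correlated between the tables. In the TIC10 group, r ran from -0.551 (bead replicate 2 with matrix column 2) to 0.474 (bead replicate 3 with matrix column 2). The deviations of 3 columns sum to 0 for each gene, which by itself makes some of these values negative.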
